A study of Ovis aries with 8 samples.

Results

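HK1, LDHA and SLC16A1 encode 3 steps in the use of glucose and lactate, and their transcripts were measured in the hypothalamus of late-gestation sheep fetuses after infusion of estradiol-3-sulphate or vehicle. Every non-control probe whose gene name or description in the scanner files named 1 of these genes was taken, whatever its value. The 3 genes themselves were chosen with earlier results of these data known. This gave 3 of the 1019 genes named on the array, read by 5 of its 15008 probes: 1 for HK1, 2 for LDHA and 2 for SLC16A1. The design comprised 4 sets of twin sheep fetuses carrying catheters, 1 twin of each set receiving the steroid and the other serving as control. RNA of the 8 hypothalami was hybridised to 8 one-colour Agilent arrays, 1 array per fetus, so that each group held 4 fetuses.

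Treated fetuses received estradiol-3-sulphate at 1 mg/day from an osmotic mini-pump whose catheter ended in the lateral cerebral ventricle. Estradiol-3-sulphate is a conjugated estrogen that sulphatase activity can turn into free estradiol. The control twin is called untreated in some labels, while others state that it underwent the same surgery with a saline infusion. It is called vehicle here. Surgery was placed at 120 to 127 days of gestation in the design text and near 125 days in the protocol, and the infusion lasted 7 to 12 days by the former and 7 to 10 days by the latter. Hypothalami were taken at 130 to 134 days of gestation, and their RNA spent 7 years in the freezer before a portion of 1 µg from each was labelled. No genotype, strain or sex is used here. Replicate numbers were not stated to mark co-twins. Because the hypothalamus was sampled whole, fewer cells of a type and less RNA per cell cannot be told apart.

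Hexokinase 1, encoded by HK1, phosphorylates glucose as it enters the cell and is the main hexokinase of the brain. LDHA encodes the A subunit of lactate dehydrogenase, which interconverts pyruvate and lactate and is a well-known target of hypoxia signalling. SLC16A1 encodes monocarboxylate transporter 1 (MCT1), which carries lactate, pyruvate and ketone bodies across membranes and in brain is found on capillary endothelium and glia. The fetal sheep brain uses mainly glucose, and lactate is a further fuel of the fetus.

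The probe sequences are shown because each gene rests on 1 or 2 stretches of 60 bases, so that the values below are those of these stretches and not of whole transcripts. They are given 5′ to 3′ as the scanner files hold them, with no base marked.
HK1: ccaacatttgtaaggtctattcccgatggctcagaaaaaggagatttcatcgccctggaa
LDHA, brighter probe: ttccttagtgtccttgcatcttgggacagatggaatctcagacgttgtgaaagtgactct
LDHA, dimmer probe: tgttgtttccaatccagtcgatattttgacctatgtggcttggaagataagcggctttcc
SLC16A1, brighter probe: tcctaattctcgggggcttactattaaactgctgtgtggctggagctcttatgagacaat
SLC16A1, dimmer probe: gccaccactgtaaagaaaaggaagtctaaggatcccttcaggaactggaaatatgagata
The GC content of the 5 probes lay between 41.7% and 45.0%, beside a median of 43.3% over all probes on the array. Both LDHA probes were drawn from 1 source sequence, where they occupy bases 392 to 451 and 849 to 908, with 397 bases between them. The SLC16A1 probes lie only 8 bases apart on their own source sequence, at bases 730 to 789 and 798 to 857. The HK1 probe covers bases 205 to 264 of its source. The longest run of bases that a member shared with any other probe of the array, read on either strand, was 15, for the brighter LDHA probe. Genome positions, exons and untranslated regions of the probes were not analysed here, and neither was cross-hybridisation to relatives such as HK2 or LDHB. Within a gene, the probes share their source and are no independent replicates.

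The scanner software flagged 4 of the 5 probes as well above background on all 8 arrays. The dimmer SLC16A1 probe was so flagged on 6 arrays, all 4 of the treated fetuses and 2 of the vehicle fetuses, a pattern shared by 325 of the 11749 probes tested. That probe stood 1.36 to 1.65 times over its background in treated fetuses and 1.14 to 1.32 times in vehicle fetuses. By contrast, the brighter LDHA probe stood 53.0 to 84.5 times over background after estradiol sulphate and 22.8 to 49.0 times after vehicle. No member spot was saturated or marked as an outlier. All 5 passed the filter on dim probes, which asked for a signal well above background on at least 4 arrays and left 11749 probes. The dimmer SLC16A1 probe met that minimum through the treated group, where it is higher, so its values are given below as a description, with no test.

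The arrays themselves differed in brightness. The 75th percentile of intensity ran from 1597 to 2282 in the treated group and from 981.5 to 1633 in the vehicle group, a 1.42-fold difference between the group means of its log2 values, and 77.0% to 83.1% against 67.8% to 77.4% of probes were well above background. The lowest value of both measures belonged to vehicle replicate 4. Log2 intensities correlated between arrays of a group at 0.972 to 0.991. All 8 arrays sat on 1 slide with 1 scan time, with the treated samples filling 1 column of the slide and the vehicle samples the other. An effect of slide position and one of treatment cannot be told apart. Before any scaling, the 5 probes were higher in the treated group by 0.87 to 1.14 on the log2 scale, and 0.51 of this was the difference in the 75th percentile itself. Levels are therefore given as log2 intensity relative to the array's 75th percentile, where 0 means a signal equal to that percentile, and each difference is repeated after quantile normalization, which gives every array the same distribution of values. Levels of different probes are not set against each other.

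No member passed the adjusted threshold of 0.05. The means of the 4 probes measured on all arrays were nevertheless higher after estradiol sulphate under both scalings, by 0.36 to 0.57 on the log2 scale under 75th percentile scaling and by 0.33 to 0.59 under quantile normalization. No probe of the array passed under either scaling in limma's moderated test with Benjamini-Hochberg adjustment, that is 0% of 11749. The smallest adjusted p of any probe was 0.240 under 75th percentile scaling and 0.749 under quantile normalization. At an unadjusted p under 0.05, 2 of these 4 probes, those of HK1 and SLC16A1, were higher after estradiol sulphate under 75th percentile scaling, beside 4.38% (438) of the 9990 probes well above background on all arrays. Under quantile normalization it was 3 of the 4, with the brighter LDHA probe added, beside 2.85% (285). These counts are a description, since the 3 genes were chosen with earlier results of these data known. Over all 11749 probes tested, 6.24% (733) were higher and 2.93% (344) lower under the former scaling, and 3.37% (396) and 2.52% (296) under the latter. A difference above 0 was found for 58.1% of all probes under the former scaling and 49.4% under the latter.

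**Figure D1:**
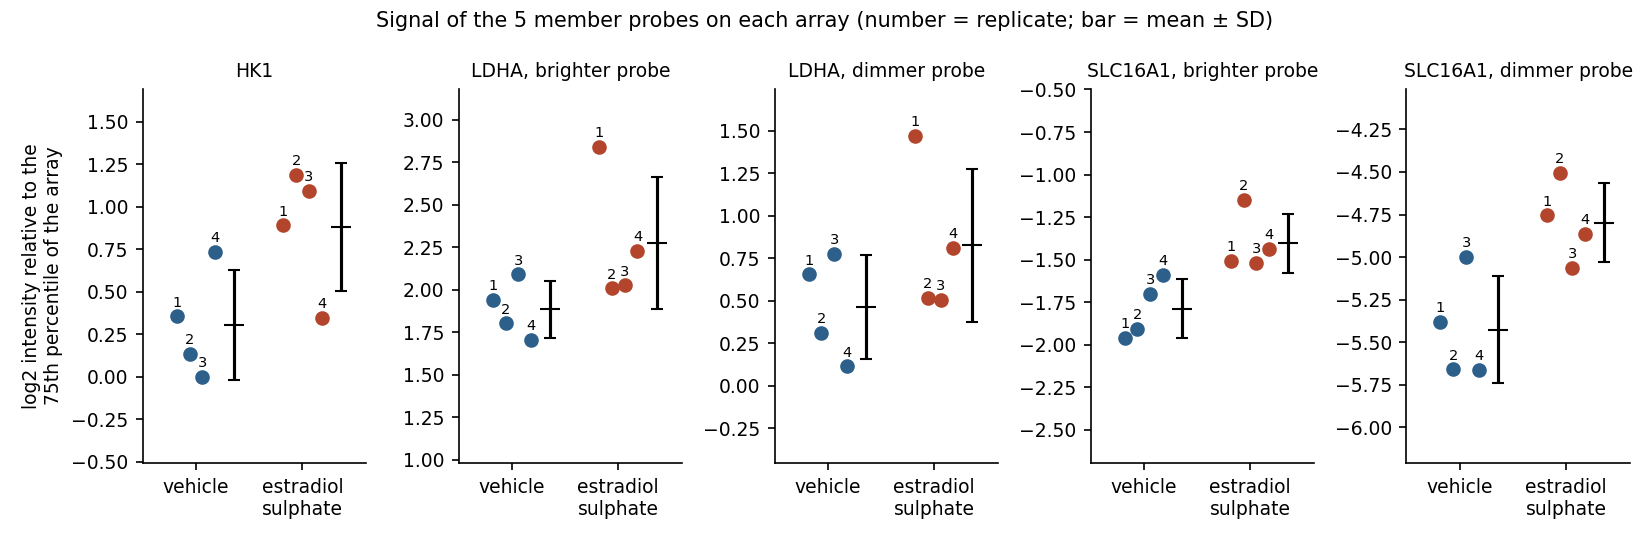
Log2 intensity relative to the 75th percentile of the array (vertical axis) of the 5 probes in the 4 vehicle and 4 estradiol sulphate fetuses, each point 1 array marked with its replicate number and each bar the mean ± SD. The groups are apart for the brighter SLC16A1 probe, at -1.52 to -1.15 against -1.96 to -1.59, and overlap for the other 4 probes.

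For hexokinase, HK1 signal relative to the 75th percentile was 0.89, 1.19, 1.09 and 0.35 in treated fetuses 1 to 4. In vehicle fetuses 1 to 4 it was 0.35, 0.13, -0.0031 and 0.73. The first 3 treated fetuses lay above every vehicle fetus, while treated fetus 4 lay below vehicle fetuses 1 and 4, so the groups overlapped. The underlying processed intensities were 2033 to 4864 and 1316 to 2087. Means were 0.88 ± 0.38 (SD, n = 4) and 0.30 ± 0.32 (SD, n = 4), a difference of 0.57 ± 0.22 (SE) with a 95% interval of 0.08 to 1.07, or 1.49-fold. limma gave an unadjusted p of 0.0280 and an adjusted p of 0.515. The exact permutation test over the 8 arrays, two-sided, gave p = 0.0857, where 0.0286 is the smallest value that 4 against 4 arrays allow. Quantile normalization left the difference at 0.59 ± 0.22 (SE; adjusted p = 0.759 in limma), and the same 3 treated arrays stood above every control.

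Single arrays moved the HK1 difference in both directions. Without treated fetus 4 it was 0.75 and without vehicle fetus 4 it was 0.72, and the lowest value, 0.47, came without treated fetus 2 or without vehicle fetus 3. None of these brought its adjusted p under the threshold.

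For lactate dehydrogenase A, the brighter LDHA probe gave 2.84, 2.01, 2.03 and 2.23 in treated fetuses 1 to 4 and 1.94, 1.80, 2.09 and 1.71 in vehicle fetuses 1 to 4. Treated fetus 1 was far above the rest, treated fetus 4 was the only other above every vehicle fetus, and vehicle fetus 3 exceeded treated fetuses 2 and 3. The means of 2.28 ± 0.39 (SD, n = 4) and 1.89 ± 0.17 (SD, n = 4) differed by 0.39 ± 0.20 (SE), with a 95% interval of -0.05 to 0.83, or 1.31-fold. The unadjusted p in limma was 0.0757 and the adjusted p 0.599, and the exact permutation p was 0.0857. Without treated fetus 1 the difference of this probe was 0.20 (unadjusted p = 0.185 in limma). After quantile normalization it was 0.46 ± 0.20 (SE; adjusted p = 0.840 in limma), and without treated fetus 1 it was then 0.27.

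The dimmer LDHA probe followed the brighter one closely across arrays. It gave 1.47, 0.52, 0.51 and 0.81 after estradiol sulphate and 0.65, 0.31, 0.78 and 0.11 after vehicle, again with treated fetus 1 highest and vehicle fetus 4 lowest. Its difference of 0.36 ± 0.24 (SE; unadjusted p = 0.164, adjusted p = 0.699 in limma) was as large under quantile normalization, at 0.36, and was 0.15 without treated fetus 1. Over the 8 arrays, the 2 LDHA probes correlated at r = 0.972, and at 0.976 once the group means were taken out. Their treatment differences were 0.03 apart, with an exact permutation p of 0.714 for that gap. A further probe with no gene name lists the same contig as LDHA among its source sequences. It lay outside the rule for members, and its difference was 0.35 ± 0.18 (SE; adjusted p = 0.604 in limma), or 0.48 under quantile normalization.

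SLC16A1 was the only member gene with a probe whose groups were apart. Its brighter probe gave -1.51, -1.15, -1.52 and -1.44 in treated fetuses 1 to 4 and -1.96, -1.91, -1.70 and -1.59 in vehicle fetuses 1 to 4. Every treated fetus was above every vehicle fetus, although treated fetus 3 and vehicle fetus 4 were close. Among all probes tested, 3.29% (386) were apart in this direction. Processed intensities were 589 to 936 and 326 to 420. The means of -1.40 ± 0.17 and -1.79 ± 0.17 (SD, n = 4 each) differed by 0.39 ± 0.14 (SE), with a 95% interval of 0.08 to 0.70, or 1.31-fold. limma gave an unadjusted p of 0.0196 and an adjusted p of 0.502, and the exact permutation p of 0.0286 was the smallest it can give.

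That separation depended on the scaling. After quantile normalization the brighter SLC16A1 probe read 9.08, 9.48, 9.11 and 9.14 in treated and 8.68, 8.78, 8.90 and 9.13 in vehicle fetuses, in log2 intensity. Vehicle fetus 4 then lay above treated fetuses 1 and 3, and only 2 treated fetuses exceeded every control. No member probe had groups apart under this scaling, beside 1.86% of all probes (218). The difference was 0.33 ± 0.14 (SE), the unadjusted p in limma 0.0445, the adjusted p 0.832 and the exact permutation p 0.0857. With normexp background correction in place of the scanner's own processed signal the same probe differed by 0.22 under 75th percentile scaling and by 0.21 under quantile normalization.

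The dimmer SLC16A1 probe gave the largest difference of the 5 under 75th percentile scaling and was the nearest to its background. Its values were -4.75, -4.51, -5.06 and -4.87 after estradiol sulphate and -5.38, -5.66, -5.00 and -5.66 after vehicle, in processed intensities of 54.8 to 91.2 and 19.4 to 41.2. All treated fetuses but the third were above every vehicle fetus. The difference was 0.63, against a vehicle group in which 2 of 4 spots were not well above background. It was 0.42 after quantile normalization, and with normexp background correction and 75th percentile scaling its sign turned, at -0.07. The 2 SLC16A1 probes correlated at r = 0.776 over the 8 arrays and at 0.397 with the group means taken out.

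**Figure D2:**
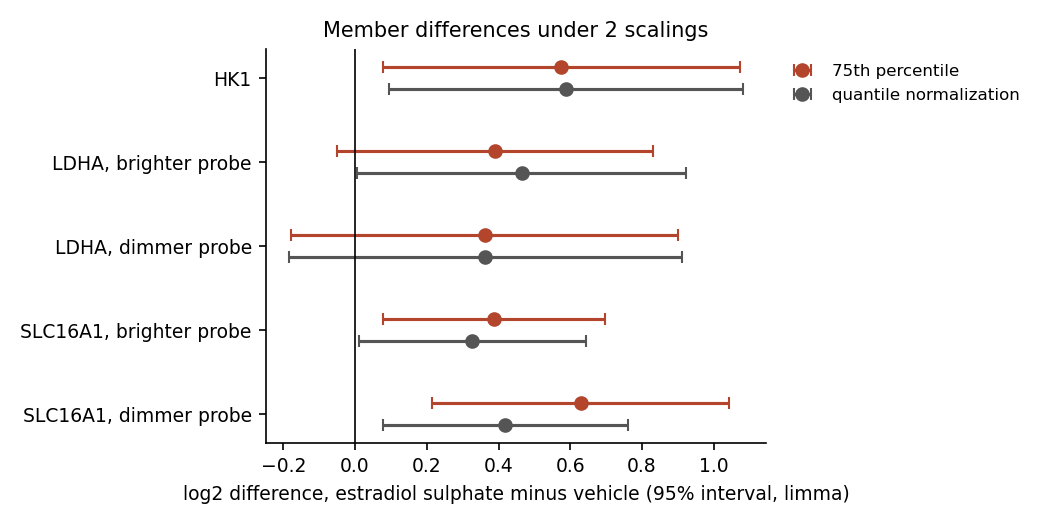
Log2 difference between estradiol sulphate and vehicle (horizontal axis, 95% interval from limma) of each member probe under 75th percentile scaling and quantile normalization. All 10 points are above 0, the brighter LDHA probe moves from 0.39 to 0.46 and the dimmer SLC16A1 probe from 0.63 to 0.42. The intervals drawn for the dimmer SLC16A1 probe are no test, since it met the filter through the treated group.

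The 2 scalings differ in how they treat dim and bright probes. When the tested probes were put into 5 equal classes by mean signal, the median difference under 75th percentile scaling went from 0.20 in the dimmest class through 0.10, 0.06 and 0.0059 to -0.12 in the brightest. Under quantile normalization the class medians lay between -0.0097 and 0.02. In the dimmest class, 15.3% of probes were higher at an unadjusted p under 0.05 under 75th percentile scaling and 5.19% under quantile normalization. In the brightest class it was 0.936% and 3.40%. The dimmer SLC16A1 probe belonged to the dimmest class, where the median was 0.20 beside its own 0.63. The brighter SLC16A1 probe was in the middle class, where the median was 0.06 beside its 0.39. HK1 and the dimmer LDHA probe fell in the fourth class, with a median of 0.0059 beside 0.57 and 0.36. For the brighter LDHA probe, in the brightest class, the median was -0.12 beside 0.39. The difference of this probe moved from 0.39 to 0.46 under quantile normalization, those of HK1 and the dimmer LDHA probe moved by less than 0.05, and those of both SLC16A1 probes came down. The part of array brightness in the member differences was not tested beyond these scalings.

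**Figure D3:**
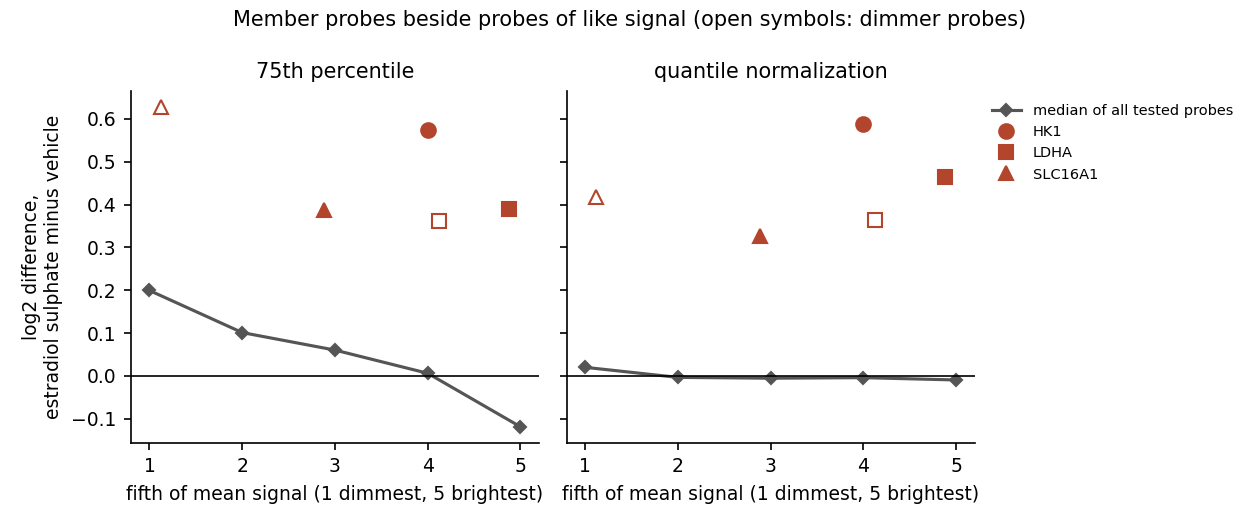
Log2 difference (vertical axis) of the member probes (symbols by gene, open for dimmer probes) over the class of mean signal, 1 dimmest to 5 brightest, with the median of all tested probes in each class as a grey line. The grey line falls from 0.20 to -0.12 under 75th percentile scaling and stays between -0.0097 and 0.02 under quantile normalization, and all member probes lie above it in both panels.

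The 3 genes did not all peak in the same fetus. HK1 was highest in treated fetus 2, followed by treated fetus 3. SLC16A1 was also highest in treated fetus 2, and LDHA in treated fetus 1. Among the 3 pairs of genes, each by its brighter probe over 8 arrays, HK1 and SLC16A1 had r = 0.716 (exact permutation p = 0.0460, adjusted 0.138) and rho = 0.595 (exact permutation p = 0.132, adjusted 0.324). This fell to r = 0.500 without the 2 arrays farthest from the HK1 median, and was 0.388 with group means taken out. HK1 and LDHA had r = 0.203 (exact permutation p = 0.686, adjusted 0.686) and rho = 0.0238 (exact permutation p = 0.977). LDHA and SLC16A1 had r = 0.294 (exact permutation p = 0.472, adjusted 0.686) and rho = 0.500 (exact permutation p = 0.216). With group means taken out, both pairs that hold LDHA were negative, at -0.364 with HK1 and -0.368 with SLC16A1. Without the 2 arrays farthest from the median of the first gene, the pooled r of these pairs was 0.448 and 0.532.

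Of 752 other named genes, those whose signal was most like that of each member were taken by Pearson's r over the 8 arrays. For HK1 they were COL4A3, a basement membrane collagen chain, at 0.966, DKC1, the dyskerin of ribosome and telomerase complexes, at 0.922, GRIN1, the obligate NMDA receptor subunit, at 0.914, NPY, an appetite-stimulating neuropeptide, at 0.898 and NAMPT, an enzyme of NAD synthesis, at 0.895. Under quantile normalization these 5 stayed between 0.903 and 0.938. For LDHA they were TLR2, a receptor of innate immunity, at 0.964, JUNB, an immediate early transcription factor, at 0.959, CCND3, a G1 cyclin, at 0.935, NFKBIA, the inhibitor of NF-κB, at 0.918 and MCL-1, an anti-apoptotic protein, at 0.895. Under quantile normalization these r were 0.442 for TLR2, 0.838 for JUNB, 0.908 for CCND3, 0.922 for NFKBIA and 0.702 for MCL-1. For the SLC16A1 genes named next they lay between 0.814 and 0.896. For SLC16A1 they were the gene listed as NRF-2 at 0.963, YBX1, a nucleic acid binding protein, at 0.920, ACVR2B, an activin receptor, at 0.878, FGFR2, a fibroblast growth factor receptor, at 0.870 and DKC1 at 0.867. With group means taken out, the HK1 and LDHA values stayed between 0.796 and 0.944, and FGFR2 and ACVR2B came to 0.622 and 0.640 for SLC16A1. These are descriptions over 8 arrays in which every probe shares the arrays' scaling, and they carry no test. One gene, DKC1, was on the lists of both HK1 and SLC16A1.

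The other genes of glucose and lactate handling, from lists of transport, glycolysis, citric acid cycle, oxidative phosphorylation, glycogen and pentose phosphate, insulin and growth factor input, and hypoxia and energy sensing, lay on both sides of 0. Of 49 further genes on the array, 43 were tested, and each was read by its brightest probe. None passed the adjusted threshold. Their difference was above 0 in 19 and below 0 in 24, with a median of -0.02, beside a median of 0.04 over all probes. At an unadjusted p under 0.05 in limma, 3 were higher and 2 lower, beside 6.24% and 2.93% of all probes. Of the 3 higher, 1, PPARA, met the filter through the treated group alone. Under quantile normalization 18 were above 0 and the median was -0.10 beside -0.0024. At the same threshold 1 was then higher and none lower, beside 3.37% and 2.52% of all probes.

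The 6 glucose transporters tested ran from -0.22 to 0.31. SLC2A1, the glucose transporter GLUT1 of the blood-brain barrier, differed by 0.0095 ± 0.15 (SE), and SLC2A3, the neuronal transporter GLUT3, by 0.00026 ± 0.19 (SE). SLC2A4, the insulin-responsive GLUT4, differed by 0.31 ± 0.24 (SE; unadjusted p = 0.228 in limma), with a range of -0.04 to 0.31 over 7 scalings. SLC2A2, the GLUT2 of liver and pancreatic islets, differed by -0.22 ± 0.13 (SE; unadjusted p = 0.124 in limma) and by -0.34 after quantile normalization (unadjusted p = 0.0507 in limma), and was below 0 under all 7 scalings. The fructose transporter SLC2A5 stood at -0.11 ± 0.19 (SE) and SLC2A8 at -0.06 ± 0.42 (SE), the widest error of the list. The second probe of SLC2A8 gave 0.30. SLC16A1 had the largest difference of the 7 transport genes tested, whose median was 0.00026 and ran from -0.10 to 0.04 over 7 scalings. That rank is a description, since SLC16A1 was chosen with earlier results of these data known.

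In glycolysis, HK1 had the largest difference of 6 genes tested, which is a description, since HK1 was chosen with earlier results of these data known. Of these 6 genes, 4 were above 0 under 75th percentile scaling and 3 under each of the other 6 scalings. ALDOA, which encodes fructose-bisphosphate aldolase A, came next at 0.23 ± 0.12 (SE; unadjusted p = 0.0861, adjusted p = 0.616 in limma), with means of 3.03 ± 0.10 and 2.80 ± 0.16 (SD, n = 4 each). After quantile normalization ALDOA stood at 0.36 (unadjusted p = 0.0224 in limma), and it was above 0 under all 7 scalings. PFKL, a phosphofructokinase subunit, differed by 0.16 ± 0.18 (SE) and GAPDH by -0.02 ± 0.22 (SE). ENO3, an enolase, differed by 0.05 ± 0.33 (SE) and was below 0 under the other 6 scalings.

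Genes of mitochondria and of the side branches gave mostly values below 0 under 75th percentile scaling. ATP5MC1, ATP5MC2 and IDH1, described next, belong to the brightest class of probes. The median of that class was -0.12 under this scaling and -0.0097 under quantile normalization. Of 5 genes of oxidative phosphorylation tested, 4 were below 0, with a list median of -0.14 under 75th percentile scaling and -0.02 under quantile normalization, and with normexp and quantile normalization the median turned to 0.03. ATP5MC1, a subunit of the c ring of ATP synthase, differed by -0.34 ± 0.13 (SE; unadjusted p = 0.0311, adjusted p = 0.515 in limma), but by -0.11 after quantile normalization. Its other 3 probes gave -0.33 to -0.01. Its counterpart ATP5MC2 differed by -0.22 ± 0.12 (SE) and by -0.04 after quantile normalization. IDH1, a cytosolic isocitrate dehydrogenase listed with the citric acid cycle, differed by -0.39 ± 0.21 (SE; unadjusted p = 0.0914 in limma). These 3 genes stayed below 0 under all 7 scalings.

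Among 8 genes of glycogen, gluconeogenesis and the pentose phosphate pathway, 6 were below 0 and the median was -0.12, with 5 to 7 below 0 over the 7 scalings. G6PC1, a glucose-6-phosphatase subunit, differed by -0.21 ± 0.16 (SE), and by -0.04 on its second probe.

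Upstream signals were mixed. IGF2, a fetal growth factor, had the largest difference of all pathway genes at 1.51 ± 0.67 (SE; unadjusted p = 0.0496, adjusted p = 0.545 in limma), with means of -0.25 ± 1.26 and -1.75 ± 1.05 (SD, n = 4 each) and overlapping groups. Its second probe gave 0.88. After quantile normalization IGF2 differed by 1.46 (unadjusted p = 0.0603 in limma). IGF1R, its receptor's gene, gave 0.37 ± 0.31 (SE). VEGFA, a vascular growth factor induced by hypoxia, differed by 0.60 ± 0.26 (SE; unadjusted p = 0.0462, adjusted p = 0.543 in limma) and by 0.57 after quantile normalization (unadjusted p = 0.0642 in limma). PPARA, a fatty acid sensing receptor, stood at 0.41, with a range of -0.24 to 0.41 over 7 scalings. It was well above background on 4 treated and 2 vehicle arrays, so this is a description with no test. HIF1A, the oxygen-sensitive subunit of the hypoxia-inducible factor, gave -0.59 ± 0.61 (SE) on 1 probe and 0.01 on the other.

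**Figure D4:**
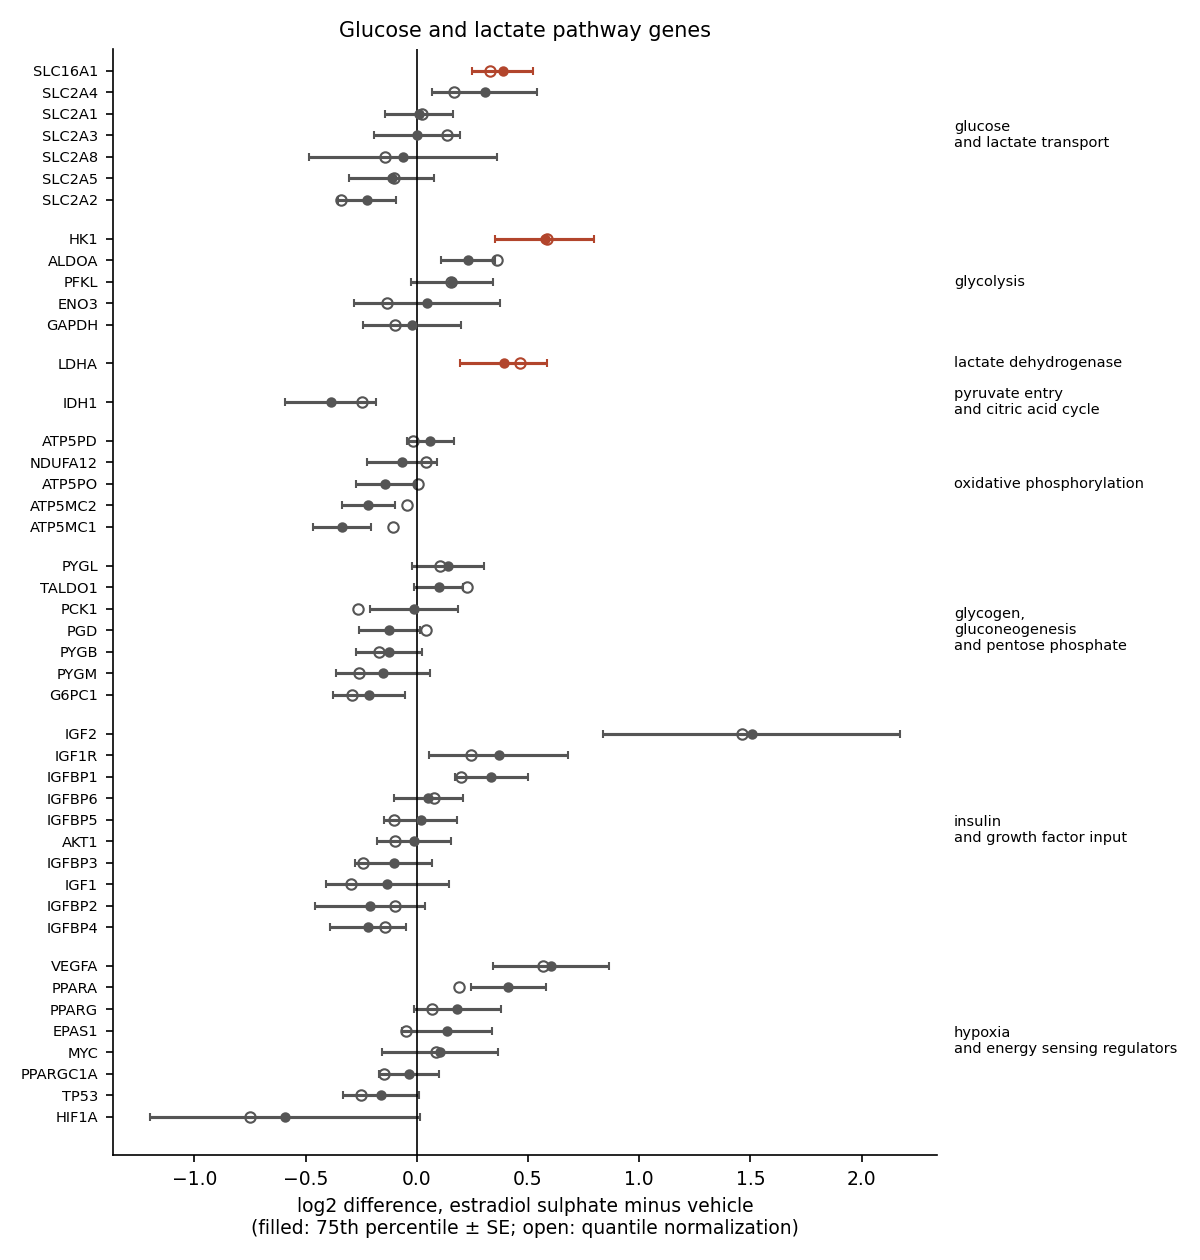
Log2 difference between estradiol sulphate and vehicle (horizontal axis) of HK1, LDHA, SLC16A1 and 41 other pathway genes tested, filled points with SE under 75th percentile scaling and open points under quantile normalization. HK1, LDHA and SLC16A1, chosen with earlier results of these data known, lie at 0.39 to 0.57. IGF2 at 1.51, VEGFA at 0.60 and PPARA at 0.41 lie in or above that range. Below 0 lie 22 of the 41 other genes drawn.

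The tissue label was checked on 10 hypothalamic neuron markers present by name, among them OXT, POMC, NPY and GHRH, of which 7 were well above background on all 8 arrays and AGRP, GHRH and GNRH1 on 6. Of these 10, 6 were above 0 with a median of 0.23. The unadjusted p in limma was under 0.05 for 4 of them, 3 above and 1 below 0. Among all probes, 58.1% were above 0, and 6.24% were higher and 2.93% lower at that threshold. The summed level of the 10 markers was 13.7 to 41.1 in treated and 22.3 to 36.9 in vehicle fetuses. With normexp and the 75th percentile 5 were above 0. The cell types that carry the members' transcripts could be followed only in part, since no marker of the general neuron or oligodendrocyte lists was on the array by name. All 5 astrocyte markers tested were above 0, beside 58.1% of all probes, with a median of 0.32. Of these markers, 1 had an unadjusted p under 0.05 in limma, and all 5 stayed above 0 under each of the 7 scalings. Their summed level was 26.0 to 46.7 in treated and 19.0 to 41.9 in vehicle fetuses. All 4 endothelial markers tested were above 0, with a median of 0.27 and summed levels of 2.30 to 2.92 and 2.07 to 2.66, but only 3 were under median scaling and in the authors' deposited log2 table and 2 with normexp and the 75th percentile. Both red blood cell markers were above 0, with a median of 0.61 and summed levels of 3.44 to 15.0 and 3.20 to 11.6. Microglia and leukocyte markers had a median of 0.12 and summed to 1.16 to 1.79 and 1.51 to 2.25. The choroid plexus marker TTR differed by 0.89, with levels of 0.113 to 6.30 and 0.536 to 0.755. The 3 pituitary markers tested had a median of -0.05, which turned to 0.14 under quantile normalization, and summed to 17.9 to 28.2 and 15.3 to 30.1. Summed levels are multiples of the array's 75th percentile. The part of these cell types in the HK1, LDHA and SLC16A1 differences was not tested.

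Under other scalings, filters and models and on leaving out arrays, the direction held for HK1 in 18 of 18 settings. It held for the brighter LDHA probe in 19 of 19 and for the dimmer in 18 of 18. For the brighter SLC16A1 probe it held in 19 of 19, and for the dimmer, as a description, in 16 of 17. Both counts of 19 include the mean of both probes of the gene, which for SLC16A1 takes in the dimmer probe. Changing the filter or variance prior, or adding the replicate block, cannot move a difference, so the sign there was fixed in advance. For the brighter SLC16A1 probe, whose groups were apart under 75th percentile scaling, leaving out an array could not turn the sign either. The authors' table nearly repeats median scaling, at 0.47 for HK1 in both. Of all settings, an unadjusted p under 0.05 in limma was reached in 10 for HK1, 4 for the brighter and 0 for the dimmer LDHA probe, and 11 for the brighter SLC16A1 probe. Among those 11 is the mean of both SLC16A1 probes, which takes in the dimmer probe and is no test of the brighter alone. The adjusted p was never under the threshold, with ranges of 0.308 to 0.838 for HK1, 0.440 to 0.840 for the brighter LDHA probe and 0.289 to 0.845 for the brighter SLC16A1 probe.

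**Figure D5:**
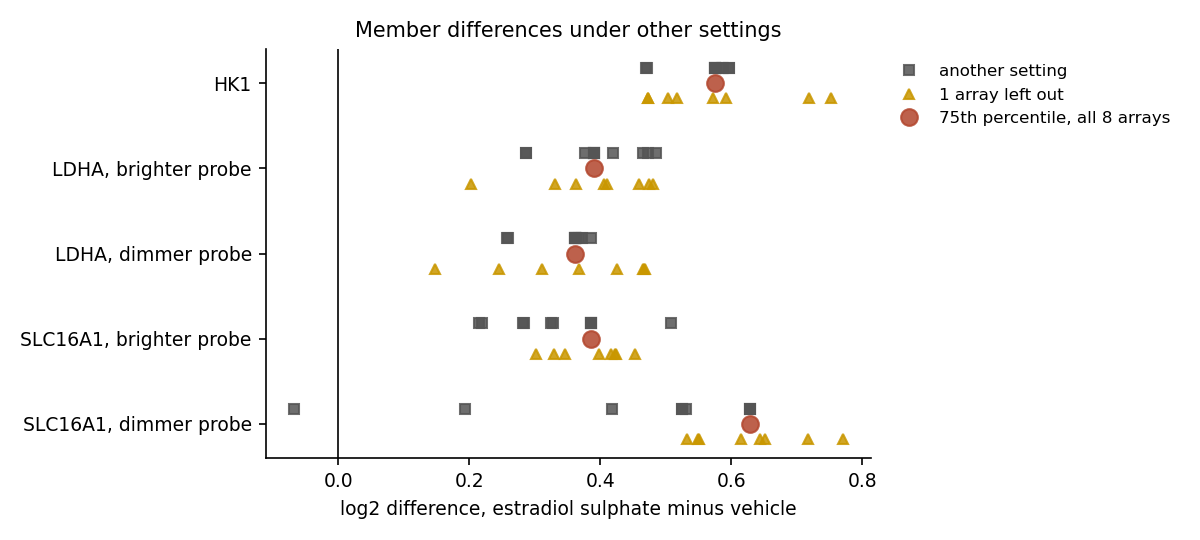
Log2 difference between estradiol sulphate and vehicle (horizontal axis) of each member probe under the reported setting, other scalings and settings, and each array left out in turn. The rows of the brighter LDHA and SLC16A1 probes also hold the mean of both probes of the gene. Only the dimmer SLC16A1 probe has a value below 0, at -0.07, and the brighter LDHA probe drops to 0.20 without treated fetus 1.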

How the data were processed

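The scanner files hold processed intensity per spot, background-corrected by Feature Extraction 10.1.1.1 per the file headers, with no scaling between arrays. The authors' deposited log2 table equals log2 of that intensity minus a constant per array whose origin the sources used here do not give. Control spots and outlier-flagged spots were left out, spots of a probe averaged, log2 taken, and the array's 75th percentile over probes subtracted. Probes well above background on at least 4 of 8 arrays were tested with limma 3.58.1 in R 4.3.3 (lmFit, eBayes, group term only, Benjamini-Hochberg over 11749 probes, tested on simulated data), and 3259 were left out. The brightest probe stood for a gene. Named were all member probes, pathway genes with an unadjusted p under 0.05 or among the 2 largest differences of their list, and the 5 genes most correlated with each member. Further transport and glycolysis genes were added after their values were seen. Of the pathway genes, 2 are not reported here, though counts include them. Gene symbols came from the files, with current symbols from the RefSeq table of sheep. Alternatives changed the scaling, background correction, filter, variance prior and probe rule, added a replicate block, or left out an array. The members and lists were chosen with earlier results of these data known. The number of arrays limits the precision.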

Additional observations from a re-analysis of the deposited data

How the results depend on the processing

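No setting brought any probe under the adjusted threshold. The reported count of 1077 probes at an unadjusted p under 0.05 was 692 under quantile normalization and 2089 without the filter, and 695 (without treated fetus 2) to 1291 (without vehicle fetus 4) on leaving out arrays. Its split of 733 higher and 344 lower was 345 and 753 under median scaling, 344 and 760 in the authors' deposited log2 table, 201 and 851 with normexp and the 75th percentile, 396 and 296 under quantile normalization, and 904 and 1185 without the filter. The median of all probes was 0.04 as reported, -0.06 under median scaling and in the authors' table, and -0.08 with normexp and the 75th percentile, a shift of over 0.1. Median scaling only subtracts another constant per array, so the members' differences shift with it. HK1 was 0.47 under median scaling and in the authors' table, LDHA 0.29 in both, and SLC16A1 0.28 in both. The dimmer SLC16A1 probe was -0.068 with normexp and the 75th percentile. Of the 43 pathway genes, 19 were above 0 as reported, 12 under median scaling, 11 with normexp and the 75th percentile, and 11 in the authors' table, and 18 to 22 on leaving out arrays. Leaving out arrays gave 0.47 to 0.75 for HK1, 0.20 to 0.48 for LDHA and 0.30 to 0.45 for SLC16A1, and 0.15 to 0.47 and 0.53 to 0.77 for their dimmer probes. A balanced block on the replicate number cannot move the differences (0.57, 0.39 and 0.39). With it the unadjusted p in limma went from 0.0280 to 0.0643 for HK1, from 0.0757 to 0.0695 for LDHA and from 0.0196 to 0.0375 for SLC16A1, and 1158 probes were under 0.05. Deviations of arrays of the same number correlated at 0.236, -0.014, 0.191 and 0.247, and 3 of 4 correlated best with their own number. In both groups the replicate number is also the row on the slide, so the block is one on slide row as well. Pairing of twins and slide row cannot be told apart, and the labels do not settle it. Signal near background limits the dimmer SLC16A1 probe.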
